A study of Mus musculus with 6 samples.

Results

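The genes described here are 10 neighbours on mouse chromosome 15, of 48795 gene identifiers counted: Prph, Troap, C1ql4, Dnajc22, Spats2, Kcnh3, Mcrs1, Aqp2, Aqp5 and Aqp6. They were chosen by name, with the difference between the 2 groups known, because 3 of them (Prph, C1ql4 and Aqp5) were far higher in knockout hippocampus. Their differences between groups are therefore given as a description without p-values, and the question put to the data is whether the genes around them changed as well. All lie between 99.0 and 99.7 Mb (GRCm38), a window of 700.0 kb with 35 annotated genes, of which 29 were in the count table.

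Polyadenylated RNA of whole hippocampus was counted in 3 knockout (KO) and 3 wild-type (WT) libraries. KO mice, labelled ifKO, carried floxed Kdm1a, with exons 5 and 6 removed, and floxed Kdm5c, with exons 11 and 12 removed, together with the CreERT2 recombinase driven by the CamKIIα promoter in forebrain principal neurons. WT mice also received tamoxifen, and the labels do not say whether they carried the recombinase. Mice were on a C57BL/6J background and were 2 to 3 months old when tamoxifen was given. Cells without the recombinase, such as glia, were part of the tissue, and no group lacked only 1 of the enzymes. In bulk tissue more cells expressing a gene cannot be told apart from more RNA per cell.

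KDM1A (LSD1) removes methyl groups from mono- and dimethylated lysine 4 of histone H3, and KDM5C removes them from the di- and trimethylated forms. These marks lie at enhancers and promoters, and both enzymes are known from complexes that repress transcription. The chromosome 15 stretch mixes genes of very different habit. Prph encodes peripherin, an intermediate filament protein known from neurons with axons outside the brain. C1ql4 encodes a secreted C1q-like protein of a family that binds the adhesion receptor ADGRB3. Aqp2, Aqp5 and Aqp6 form a tandem cluster of water channel genes, known from kidney collecting duct (Aqp2), salivary and lacrimal glands (Aqp5) and vesicles of kidney intercalated cells (Aqp6). Between these groups lie genes expressed in forebrain neurons or in most cells, among them the potassium channel gene Kcnh3 and the chromatin protein gene Mcrs1.

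Levels are given as CPM, counts scaled to library size with TMM. Libraries held 19309576 to 19700249 counts each. Kdm1a averaged 38.6 ± 1.29 CPM in KO and 73.7 ± 3.95 CPM in WT, and Kdm5c 70.6 ± 4.67 CPM in KO and 79.5 ± 2.97 CPM in WT (SD, n = 3 each). Kdm1a fell, with a log2 fold change of -0.93 (SE 0.0651), and Kdm5c did not pass the test (-0.17, SE 0.0640, edgeR adjusted p = 0.143). Of the 7 listed markers of hippocampal principal neurons 7 were detected, with a summed level of 6291 to 6905 CPM in KO and 6715 to 7137 CPM in WT, and 1 of them (Neurod6) fell. Throughout, a gene outside the 10 is said to have risen or fallen where the adjusted p was under 0.05 by the quasi-likelihood test of edgeR, adjusted by Benjamini-Hochberg over all 16861 genes tested. By that rule 6.95% of tested genes were called, with 5.90% higher and 1.05% lower in KO. Whether each library stands for 1 animal is not in the labels, and p-values cover the spread among these 6 libraries, which may be technical.

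Genes far higher in KO and genes with hardly a count in either group lie side by side here. Dnajc22, also close to C1ql4, had no sequence in the RefSeq table used. The sequences just before the starts of Prph, C1ql4 and Aqp5 are shown with those of near-silent genes beside them, Troap, Aqp2 and Aqp6. Each is the 250 bases before the RefSeq start (GRCm38.p6), written 5′ to 3′ along the strand of the gene, and capitals mark CpG dinucleotides.
Prph, chr15:99054924-99055173, plus strand: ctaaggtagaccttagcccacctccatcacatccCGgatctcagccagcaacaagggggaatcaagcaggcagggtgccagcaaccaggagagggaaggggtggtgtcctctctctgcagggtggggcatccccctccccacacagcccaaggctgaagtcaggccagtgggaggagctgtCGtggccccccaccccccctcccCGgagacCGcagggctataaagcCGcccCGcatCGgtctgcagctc
Troap, chr15:99074723-99074972, plus strand: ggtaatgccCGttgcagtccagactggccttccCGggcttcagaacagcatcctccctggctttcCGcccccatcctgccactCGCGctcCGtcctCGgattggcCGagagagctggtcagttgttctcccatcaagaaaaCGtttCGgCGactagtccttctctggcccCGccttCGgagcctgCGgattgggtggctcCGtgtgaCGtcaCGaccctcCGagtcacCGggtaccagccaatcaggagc
C1ql4, chr15:99087729-99087978, minus strand: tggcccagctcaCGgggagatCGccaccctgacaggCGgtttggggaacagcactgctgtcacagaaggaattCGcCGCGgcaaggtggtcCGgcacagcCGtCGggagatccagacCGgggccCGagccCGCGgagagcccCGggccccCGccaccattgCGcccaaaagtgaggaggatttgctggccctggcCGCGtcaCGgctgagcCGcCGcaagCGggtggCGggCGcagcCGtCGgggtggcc
Aqp2, chr15:99578806-99579055, plus strand: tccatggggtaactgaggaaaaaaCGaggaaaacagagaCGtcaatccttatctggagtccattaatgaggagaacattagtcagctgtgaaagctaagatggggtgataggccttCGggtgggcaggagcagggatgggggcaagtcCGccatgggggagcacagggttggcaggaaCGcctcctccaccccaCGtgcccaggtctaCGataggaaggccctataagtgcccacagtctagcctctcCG
Aqp5, chr15:99590778-99591027, plus strand: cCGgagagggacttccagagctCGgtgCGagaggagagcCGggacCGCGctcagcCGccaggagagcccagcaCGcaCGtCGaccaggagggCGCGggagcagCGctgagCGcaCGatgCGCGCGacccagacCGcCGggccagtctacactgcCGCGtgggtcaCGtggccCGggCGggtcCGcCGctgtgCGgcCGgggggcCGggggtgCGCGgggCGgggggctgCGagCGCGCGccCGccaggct
Aqp6, chr15:99600950-99601199, plus strand: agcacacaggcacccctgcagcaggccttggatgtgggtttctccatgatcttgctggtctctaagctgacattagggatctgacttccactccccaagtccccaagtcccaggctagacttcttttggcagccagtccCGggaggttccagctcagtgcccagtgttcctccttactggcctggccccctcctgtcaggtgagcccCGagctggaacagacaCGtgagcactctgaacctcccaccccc
The 3 genes far higher in KO differed in CpG content. The Aqp5 sequence held 38 CpG and the C1ql4 sequence 26, more than 98.1% and 90.4% of the 32851 mouse promoters of the same length, whose median was 6. The Prph sequence held only 7, with a GC content of 65.2%. Among the silent neighbours Troap had 19 CpG, Aqp2 had 8 and Aqp6 had 3.

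Short motifs were searched on both strands in these bases, in every member with a sequence. TATAAA, the TATA box, was found in Prph of the 8 members with a sequence, at 31 bases before the start, and in 12.4% of all promoters. CACGTG, an E-box, was found in Aqp5 at 87, in Aqp2 at 58 and in Aqp6 at 29 bases before the start, and in 6.02% of all promoters. It was thus present in all 3 water channel genes, of which only Aqp5 had more than 3 counts over the KO libraries. CCGCCC, a GC box, was found in Prph, Troap, Spats2, Mcrs1 and Aqp5 and in 32.7% of all promoters. CAGCTG, another E-box, was found in Aqp2 and in 13.0% of all promoters, and CAGCACC was found in none of the 8 members and in 5.73% of all promoters. No matches overlapped each other in these members except 1 pair in Spats2. RefSeq and GENCODE place some starts differently. The RefSeq start lies 246 bases inside the GENCODE gene for Aqp5, 89 for C1ql4, 398 for Troap and 929 for Spats2. That of Aqp6 lies 200 bases before the GENCODE gene. The RefSeq table used had no entry for Dnajc22 or Kcnh3.

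**Figure D1:**
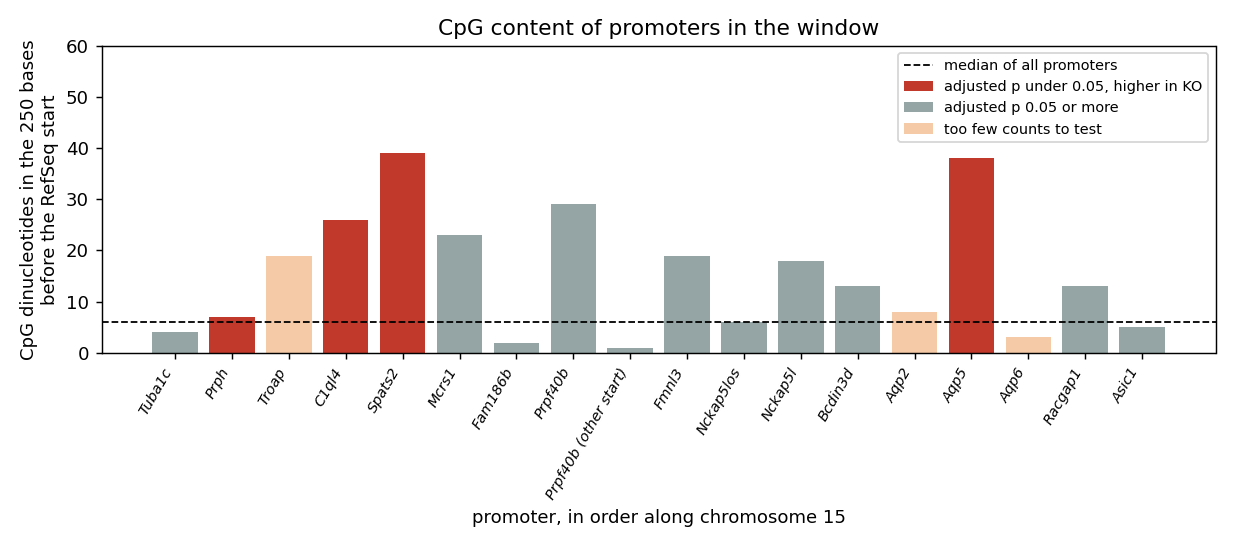
CpG dinucleotides in the 250 bases before each RefSeq start in the window (y axis), in order along the chromosome (x axis), with the median of 6 over all mouse promoters as a dashed line and colours for the result of the KO against WT test. Promoters of genes higher in KO ran from 7 (Prph) to 39 (Spats2), and those of genes without a call from 1 to 29.

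Prph had the highest KO level of the 3 risen genes. It is at chromosome 15, 99055174 to 99058978, on the plus strand (ENSMUSG00000023484). It measured 59.9, 54.3 and 58.3 CPM in the KO libraries, against 2.34, 1.93 and 1.41 CPM in the WT libraries. The lowest KO library was far above the highest WT library, and the log2 fold change was 4.92 (SE 0.126). Per kb of exon, Prph in KO stood above 90.6% of all tested genes, and in WT above 21.3%. Peripherin transcript was therefore low but countable in WT, with 27 to 46 counts per library.

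C1ql4 was close to absent in WT. This gene is at 99084086 to 99087817 on the minus strand (ENSMUSG00000001076), with its start 32.6 kb from that of Prph. Its counts were 127, 132 and 110 in the KO libraries, against 0, 1 and 0 in the WT libraries. The ratio of summed counts per library size was 364, with an exact 95% binomial interval of 65.0 to 14425 that covers counting error only. Per kb of exon its KO level lay above 48.4% of tested genes, near the middle of the transcriptome.

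Aqp5 rose to a lower level. It lies at 99590782 to 99594829 on the plus strand (ENSMUSG00000044217), 536 kb from the start of Prph. Its counts were 71, 67 and 60 in the KO libraries, against 0, 1 and 2 in the WT libraries. The ratio of summed counts was 65.1 (exact 95% binomial interval 22.0 to 319, counting error only). Per kb of exon, Aqp5 in KO stood above 24.9% of tested genes. In KO the order of the 3 genes per kb was Prph (28.8 ± 1.46 CPM per kb), C1ql4 (4.26 ± 0.429) and Aqp5 (1.30 ± 0.114; SD, n = 3 each), with no overlap between them in the spread of the libraries.

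**Figure D2:**
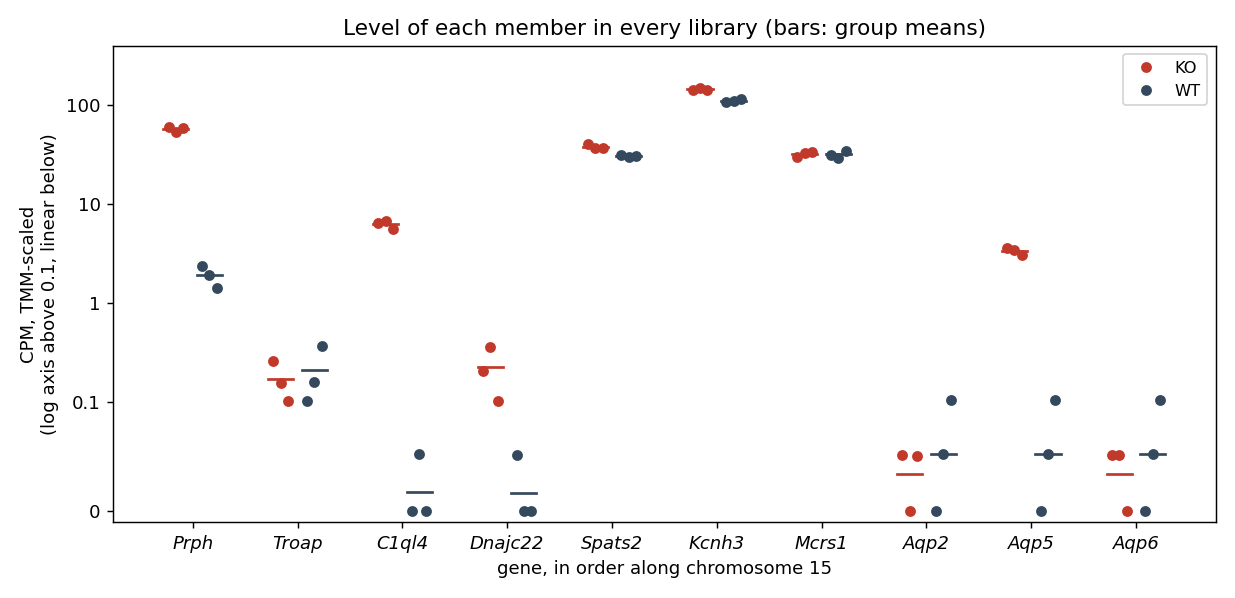
Level of each of the 10 members (x axis, in chromosomal order) in every library as TMM-scaled CPM (y axis, logarithmic above 0.1 and linear below), with KO points left of WT points and bars for group means. Prph, C1ql4 and Aqp5 stand far apart between the groups, while Troap, Aqp2 and Aqp6 stay below 0.4 CPM in all 6 libraries.

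Of the closest neighbours of the 3 genes, Troap, Aqp2 and Aqp6 stayed at the limit of detection in both groups. Troap encodes a protein of the mitotic spindle and lies between Prph and C1ql4, its end 0.676 kb from that of C1ql4. It had 5, 3 and 2 counts in the KO libraries, against 2, 3 and 7 in the WT libraries, so the groups overlapped. Aqp2, whose end lies 6.23 kb before Aqp5, had 1, 0 and 1 counts in KO, against 0, 1 and 2 in WT. Aqp6, 6.57 kb beyond Aqp5, had 1, 1 and 0 counts in KO, against 0, 1 and 2 in WT. Neither water channel gene was above 3 counts over the libraries of a group, so no fold is given, and neither had the counts that Aqp5 showed in KO. All 3 were too low for the test, since a gene had to reach about 10 counts in 3 libraries.

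Dnajc22, which encodes a membrane-bound DnaJ co-chaperone, had 4, 7 and 2 counts in the KO libraries, against 1, 0 and 0 in the WT libraries. It begins 38.0 kb from the start of Prph and 5.35 kb beyond C1ql4. Every KO library was above every WT library, but the gene did not pass the filter on low counts. The ratio of summed counts was 12.8 with an exact 95% binomial interval of 1.93 to 545, counting error only. At 0.120 ± 0.0706 CPM per kb (SD, n = 3) its KO level was above only 0.749% of tested genes.

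Of the 3 members that are well expressed in hippocampus, Kcnh3 and Spats2 were modestly higher in KO and Mcrs1 was not. Kcnh3 encodes Kv12.2, a voltage-gated potassium channel of forebrain neurons, and measured 143, 150 and 143 CPM in KO, against 109, 111 and 115 CPM in WT. Its KO level was higher by 30.4% (95% interval 19.6 to 42.2%), and the groups did not overlap. Spats2, named for its expression in spermatogenesis, measured 40.6, 36.7 and 37.4 CPM in KO, against 31.1, 30.2 and 30.6 CPM in WT, a rise of 24.7% (95% interval 12.2 to 38.6%). Without KO replicate 1 its log2 fold change was 0.27 in place of 0.32 and no longer passed the threshold. Mcrs1, a subunit of the NSL and INO80 chromatin complexes, measured 29.9, 32.8 and 33.5 CPM in KO, against 31.8, 29.5 and 34.3 CPM in WT. Its groups overlapped, with a 95% interval for the difference of -10.6 to 13.7%. Kcnh3 and Mcrs1 end on the same base and point towards each other, and the strand setting of the counting is not given in the sources used here.

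In all, 6 of the 10 members passed the filter on low counts, and 5 of these were higher in KO at the threshold, where 6.95% of all tested genes were called and 5.90% were higher. Since the members were chosen on this difference, the count describes them only. C1ql4 and Aqp5, with 1 and 3 counts over the WT libraries, passed the filter only through their KO libraries. The log2 changes of the 5 fell into separate size classes, with Kcnh3 and Spats2 at 0.38 and 0.32 and Prph, C1ql4 and Aqp5 all above 4.

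The other genes of the window did not change by the test. They are what was left after the members, chosen with their values known, were taken out. Their count of calls is thus partly set by that choice. Over all window genes 5 of 18 tested were higher in KO (27.8%), where 6.95% of all tested genes were called. All 5 are members. Of the 19 other genes counted, 12 could be tested, and 0 rose and 0 fell by edgeR with Benjamini-Hochberg adjustment. DESeq2 and limma-voom also called 0, and 1 gene had an unadjusted p under 0.05 in each of the 3 tools. That gene was Fmnl3, a formin of the actin cytoskeleton 315 kb from the start of Prph. It measured 18.5, 16.3 and 17.3 CPM in KO, against 13.9, 14.3 and 13.8 CPM in WT. The groups did not overlap, and the difference was 23.8% (95% interval 8.30 to 41.6%) with an edgeR adjusted p of 0.0574. The adjusted p ran from 0.0416 with scaling by library size alone to 0.208 without KO replicate 1. All KO libraries lay on 1 side of all WT libraries in 3 of the 12 genes (25.0%), as in 25.2% of all tested genes. Their median absolute log2 fold change was 0.15, against 0.12 over all tested genes.

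Genes directly beside members were among these 12. Tuba1c, an alpha-tubulin gene that starts 25.3 kb before Prph, measured 9.59, 8.14 and 8.67 CPM in KO, against 1.02, 6.32 and 12.0 CPM in WT. The WT libraries thus enclosed the KO libraries, the interval of the difference was as wide as -29.6 to 166%, and without WT replicate 1 the log2 fold change turned from 0.45 to -0.06. Its reads may be shared with the near-identical genes Tuba1a and Tuba1b next to it, so its level is uncertain. Faim2, an inhibitor of Fas-induced cell death that lies between Mcrs1 and Aqp2, measured 597 ± 11.9 CPM in KO and 553 ± 30.9 CPM in WT (SD, n = 3 each; edgeR adjusted p = 0.294). Racgap1, a regulator of cytokinesis just beyond Aqp6, measured 5.55 ± 0.459 CPM in KO and 6.57 ± 0.765 CPM in WT (edgeR adjusted p = 0.355). Fam186b, the next coding gene after Mcrs1, measured 1.19 ± 0.150 CPM in KO and 1.57 ± 0.417 CPM in WT (edgeR adjusted p = 0.436). The intervals of these differences were -0.666 to 17.1% for Faim2, -31.2 to 3.80% for Racgap1 and -48.3 to 12.0% for Fam186b.

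The window edges were set by position, and the genes on either side of them were alike in not being called. Asic1, the last gene inside, had a log2 fold change of 0.04 (SE 0.0652), and Smarcd1, the first outside, 0.03 (SE 0.0572). On the other side Tuba1c was the first tested gene inside, and the noncoding gene 4930578M01Rik just outside had a log2 fold change of 0.02 (SE 0.248).

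**Figure D3:**
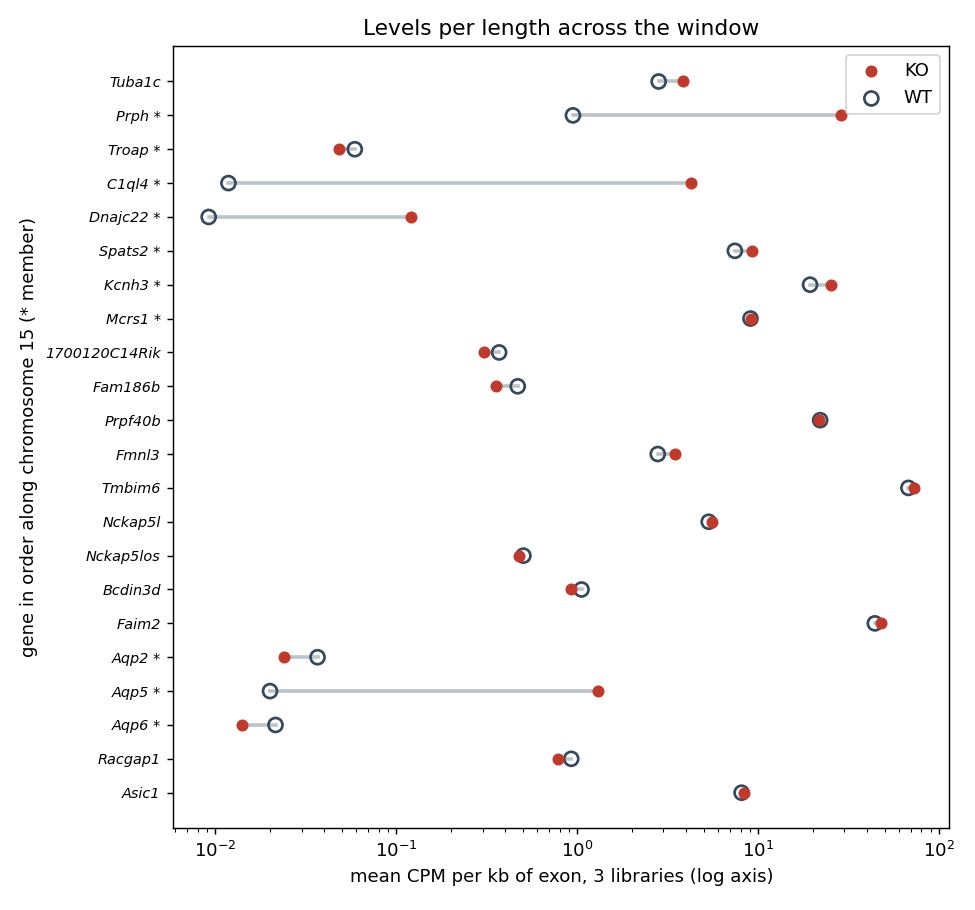
Mean CPM per kb of exon over 3 libraries (x axis, log scale) of the 10 members (asterisks) and the 12 other tested genes of the window in chromosomal order (y axis), with filled KO points and open WT points. Long lines mark Prph, C1ql4, Dnajc22 and Aqp5, of which Dnajc22 rests on 13 counts in KO, and most other pairs of points nearly coincide.

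Beyond the window, strong rises were found on the Prph side. Within 500 kb on either side 30 genes were tested, of which 3 rose and 0 fell in edgeR, against 5.90% and 1.05% of all tested genes. DESeq2 and limma-voom gave the same counts, and at an unadjusted p under 0.05 all 3 tools had 4 genes higher and 1 lower, the 2 uncalled ones being Gpd1 and Ddn. Wnt10b and Wnt1 encode secreted ligands of the Wnt pathway and lie 277 and 265 kb from the start of Prph, before it on the chromosome. Wnt10b had 61, 47 and 60 counts in KO, against 5, 14 and 6 in WT, and its log2 fold change was 2.71 (SE 0.314, edgeR adjusted p = 5.93e-05). Wnt1 had 33, 47 and 38 counts in KO, against 7, 7 and 5 in WT, with a log2 fold change of 2.59 (SE 0.306, edgeR adjusted p = 7.04e-05). Both were higher in 3 of 3 KO libraries than in any WT library. Cacnb3, a beta subunit of voltage-gated calcium channels, measured 258 ± 6.69 CPM in KO and 220 ± 10.8 CPM in WT (SD, n = 3 each), a log2 fold change of 0.23 (edgeR adjusted p = 0.0296). It missed the threshold without any of the 3 KO libraries or without WT replicate 1 or 2, with edgeR adjusted p-values of 0.0517 to 0.141. The 3 genes that rose lay on the Prph side of the window, where 22 genes were tested, and 0 of the 8 tested on the Aqp5 side rose or fell. Gpd1, an enzyme of glycerol phosphate metabolism on that side, measured 151, 168 and 160 CPM in KO, against 118, 140 and 155 CPM in WT, a difference of 16.1% (95% interval 2.17 to 31.9%, edgeR adjusted p = 0.169).

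**Figure D4:**
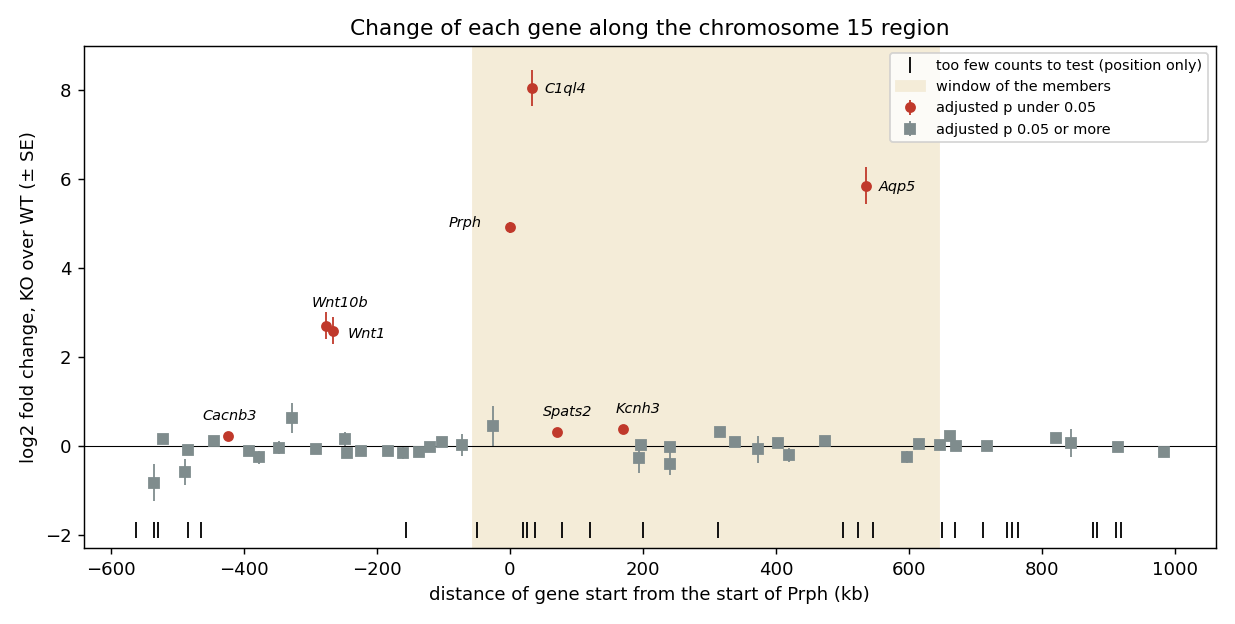
Log2 fold change of KO over WT with its SE (y axis) for the 48 tested genes of the window and its flanks, by the distance of each gene's start from that of Prph in kb (x axis), with ticks for genes too low to test. Fitted values of C1ql4 and Aqp5 rest on 1 and 3 WT counts and depend on the prior count of the fit; Prph, C1ql4, Aqp5, Wnt10b and Wnt1 stand above 2, and the grey squares scatter about 0.

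Of the 9 genes tested on chromosome 15 that were over 4-fold higher in KO at the threshold, 5 lay in the window and its flanks, a span of 1700.0 kb, and over the whole genome 124 of 16861 tested genes (0.735%) met this rule. The stretch was chosen for its strong rises, so nothing is read from this density. Over chromosome 15 as a whole 48 genes rose and 6 fell of 627 tested. Among tested coding genes Prph and C1ql4 were next to each other, and Spats2, on the other side of C1ql4, was the third of the 6 neighbouring positions with a call. Tuba1c, Faim2 and Racgap1 held the others. For the other 108 coding genes over 4-fold higher in KO, the nearest tested coding genes on both sides numbered 215, of which 26 rose and 4 fell (14.0%), against 7.55% of all tested coding genes. Of those 215 neighbouring positions 14 held genes that were themselves over 4-fold higher at the threshold. These 14 are part of the 26 that rose, and a pair of such genes was counted from both sides. Over all tested genes, coding or not, 0.735% met this rule. Genes too low to test were passed over, as Troap was between Prph and C1ql4. Nothing is therefore read from the 14.0%. The median log2 fold change of the 215 was 0.00067. Wnt10b and Wnt1 of the flank are among the 108 genes and are neighbours of each other.

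Relatives of the members were taken as lists and described by their counts only. Of the listed genes Racgap1 lies in the window and Kansl2 in the flank on the Prph side, so both are also counted there. Of 10 intermediate filament genes 3 rose and 1 fell (40.0%), where 6.95% of all tested genes were called. Gfap, the filament of astrocytes, measured 450 ± 23.1 CPM in KO and 339 ± 21.7 CPM in WT (edgeR adjusted p = 0.000793). Synm, encoding synemin, measured 77.7 ± 3.04 CPM in KO and 58.5 ± 2.20 CPM in WT (edgeR adjusted p = 0.000569). Sync, encoding syncoilin, measured 1.48 ± 0.277 CPM in KO and 0.517 ± 0.0861 CPM in WT (edgeR adjusted p = 0.00526). The neurofilament gene Nefl fell to 306 ± 15.0 CPM in KO, against 381 ± 23.0 CPM in WT (edgeR adjusted p = 0.00508; SD, n = 3 each). The log2 fold changes of these 4 genes were 0.41, 0.41, 1.51 and -0.32, all far from the 4.92 of Prph.

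Of 13 C1q-like and cerebellin genes with their receptors 3 rose (23.1%) and 0 fell by edgeR, DESeq2 and limma-voom alike. Over all tested genes edgeR called 6.95%. At an unadjusted p under 0.05 each tool had 4 higher and 1 lower, the 2 uncalled ones being C1ql3 and Nrxn3. C1ql3 measured 62.7 ± 1.24 CPM in KO and 55.9 ± 0.195 CPM in WT (SD, n = 3 each), with no overlap and an edgeR adjusted p of 0.108. C1ql1 measured 15.1, 17.8 and 17.6 CPM in KO, against 5.35, 6.22 and 7.29 CPM in WT (log2 fold change 1.42, SE 0.125, edgeR adjusted p = 4.29e-06). C1ql2, a gene of dentate granule cells, had a log2 fold change of 0.46 (SE 0.0957, edgeR adjusted p = 0.00847). Adgrb3, the receptor of the C1q-like proteins, measured 122 ± 5.68 CPM in KO and 122 ± 10.9 CPM in WT (SD, n = 3 each), so it was well expressed in both groups.

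Of 9 other aquaporin genes 4 could be tested, and 0 rose and 0 fell by edgeR, DESeq2 or limma-voom, with 1 (Aqp4) at an unadjusted p under 0.05 in all 3. Aqp4, the channel of astrocytes, measured 171 ± 4.10 CPM in KO and 148 ± 14.6 CPM in WT (edgeR adjusted p = 0.107). Its groups did not overlap, and the 95% interval of its difference was 3.91 to 28.5%. Aqp1 measured 0.645 ± 0.393 CPM in KO and 0.640 ± 0.166 CPM in WT, with an interval of -47.9 to 96.7%. Aqp11 measured 25.8 ± 1.95 CPM in KO and 23.6 ± 1.98 CPM in WT (edgeR adjusted p = 0.480; SD, n = 3 each). The 5 others, Mip, Aqp3, Aqp7, Aqp8 and Aqp12, had 0 to 1 counts over the KO libraries and 0 to 3 over the WT libraries.

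Of 7 other potassium channel genes of the EAG family 0 rose and 0 fell by any of the 3 tools, with 1 at an unadjusted p under 0.05 in edgeR, 0 in DESeq2 and 2 in limma-voom. The smallest p-values were those of Kcnh8 (log2 fold change -0.75, SE 0.338, edgeR adjusted p = 0.230) and Kcnh6 (0.45, SE 0.212, edgeR adjusted p = 0.261). Of 8 partners of MCRS1 in the NSL complex 0 rose and 0 fell by any of the 3 tools, with 1, 0 and 1 at an unadjusted p under 0.05 in edgeR, DESeq2 and limma-voom. The closest to a call were Phf20 (0.13, SE 0.0574, edgeR adjusted p = 0.202) and Kansl2 (0.15, SE 0.0902, edgeR adjusted p = 0.396). Of 12 proliferation genes, listed beside Troap, 8 were tested, and 1 rose (12.5%) and 0 fell by all 3 tools. Over all tested genes edgeR called 6.95%. No further gene of this list had an unadjusted p under 0.05. The gene that rose was Birc5, encoding survivin, at 3.26, 2.37 and 3.14 CPM in KO, against 0.968, 0.940 and 0.937 CPM in WT (edgeR adjusted p = 0.0003).

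Likeness in level over the 6 libraries was the root mean square difference in log2 CPM (prior count 2), with predicted genes and clones passed over. The named genes with levels most like those of the 3 risen members lay on other chromosomes. For Prph they were Spint1 (0.69), Ecel1 (1.05) and Pla2g2f (1.09), on chromosomes 2, 1 and 4. For C1ql4 they were Otop1 (0.52), Bhlhe23 (0.61) and Tmem30b (0.65), on chromosomes 5, 2 and 12. For Aqp5 they were Tmem30b (0.33), Bhlhe23 (0.36) and Ppm1n (0.43, chromosome 7). All 7 were higher in KO, and since the measure includes the group difference this likeness is a description.

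Markers of cell types in which peripherin or water channels are known were checked beside these rises. The choroid plexus and ependyma list of 9 genes, of which 8 were tested, summed to 76.5 to 137 CPM in KO and 40.8 to 60.9 CPM in WT. Kl and Ttr made up most of the sum in every library. Foxj1 measured 8.93 ± 1.55 CPM in KO and 9.26 ± 1.53 CPM in WT, and Ccdc153 3.73 ± 0.583 and 3.67 ± 0.962 CPM (SD, n = 3 each). Folr1, Clic6 and Tmem212 had higher means in KO, with overlap between the groups. Of the 8 tested only Kl rose (12.5%), where 6.95% of all tested genes were called. Kcnj13 and Otx2 were under 1 CPM in every library. Kcnj13 had 7, 0 and 10 counts in KO, against 2, 0 and 0 in WT, a ratio of 8.39 (exact 95% binomial interval 1.99 to 74.9, counting error only). Otx2 had 17, 12 and 14 counts in KO, against 11, 4 and 11 in WT, with no overlap (edgeR adjusted p = 0.342). Ttr, the most abundant choroid transcript, measured 58.9, 1.60 and 55.9 CPM in KO, against 19.1, 5.96 and 7.23 CPM in WT. Its log2 fold change was 1.85 (SE 0.705, edgeR adjusted p = 0.151). Aqp5 measured 3.62, 3.45 and 3.04 CPM in the same KO libraries. Of 8 gland and kidney epithelium markers 6 (Krt8, Krt18, Krt19, Cldn4, Elf5 and Avpr2) were under 1 CPM in every library, with a summed level of 1.85 to 4.08 CPM in KO and 1.83 to 2.85 CPM in WT. The 2 others were Epcam, with 22, 8 and 13 counts in KO, against 9, 9 and 9 in WT, and Cdh1, with 22, 0 and 8 counts in KO, against 10, 1 and 3 in WT. Both overlapped between the groups and were too low to test. Cldn4 had 2, 2 and 2 counts in KO, against 1, 0 and 0 in WT, and Krt19 had 5, 4 and 4, against 2, 1 and 3. Elf5 had 12, 12 and 13 counts in KO, against 8, 11 and 6 in WT (edgeR adjusted p = 0.440). These 3 genes were without overlap, as were 25.2% of all tested genes, and only Elf5 was tested. Krt8, Krt18 and Avpr2 went the other way with overlap, at 7, 25 and 11 summed counts in KO, against 14, 28 and 20 in WT. Of 8 markers of peripheral sensory and autonomic neurons 6 were under 1 CPM in every library, among them Scn10a, Trpv1, Mrgprd, Th and Isl1, and the list summed to 2.19 to 2.54 CPM in KO and 1.72 to 2.81 CPM in WT. The 2 others had groups that did not overlap in CPM and an unadjusted p under 0.05 in edgeR, in opposite directions. Dbh had 16, 21 and 15 counts in KO, against 7, 7 and 9 in WT (log2 fold change 1.15, SE 0.336, edgeR adjusted p = 0.0593). Avil had 11, 6 and 15 counts in KO, against 19, 15 and 23 in WT (log2 fold change -0.84, SE 0.351, edgeR adjusted p = 0.190).

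Markers of other brain cells were summed in the same way. Over all tested genes edgeR called 6.95%, to be set beside the calls in these lists. The habenula and other regions list summed to 9.79 to 11.1 CPM in KO and 9.32 to 9.98 CPM in WT, with Gpr151 the 1 gene of 3 tested that rose. Oligodendrocyte markers summed to 4669 to 5232 CPM in KO and 4119 to 4474 CPM in WT, with Mbp the 1 of 5 that rose by edgeR and all 5 at an unadjusted p under 0.05 (DESeq2 called 2). Astrocyte markers summed to 1368 to 1393 CPM in KO and 1182 to 1334 CPM in WT, and microglia markers to 162 to 185 CPM in KO and 140 to 163 CPM in WT, with 0 of 4 called in each by edgeR, DESeq2 and limma-voom and 2 of 4 at an unadjusted p under 0.05. The part of these shifts in the results above was not tested.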

How the data were processed

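The authors deposited raw gene counts for the 6 libraries, whole numbers for 48795 Ensembl identifiers. Per the submitters' processing notes, the tools were cutadapt 1.18, HISAT2 and HTSeq 0.11.1, and the build was GRCm38 (mm10). No source used here gives the HISAT2 version, the annotation release or the strand setting, so overlapping genes may share reads. Total counts were 19309576 to 19700249 per library. GENCODE M21 (GRCm38) gave symbols, positions and exon lengths, and left 360 identifiers with 0.0512% of counts unmatched. Promoters are RefSeq's (GRCm38.p6), and 8 of the 10 members matched.

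Genes were filtered with filterByExpr (minimum count 10, minimum total 15) and scaled with TMM. The model in edgeR (quasi-likelihood) had group as its only term and was fitted on the whole table, KO over WT, with Benjamini-Hochberg adjustment and a threshold of 0.05. Folds are log2 of KO over WT, the SE is the fold divided by the square root of F, and 95% intervals use the fit's degrees of freedom. Levels per length divide by the union of exons. Where WT libraries summed to 1 to 3 counts, a ratio of depth-scaled counts stands with its exact binomial interval, for counting error alone. In simulated data for KO against WT over 16861 genes 62% of true 1.5-fold changes and 85% of true 2-fold changes were found, and 6.96% of calls were false.

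The members and lists were chosen with earlier results of these data known. Named were the members, every called or adjacent coding gene of the window and its flanks (500 kb), every called gene of a family list or the 2 with the smallest p, and the 3 genes most alike in level to each member over 4-fold higher. In the ranking by likeness predicted genes and clones were passed over. Genes named for an unadjusted p were chosen after their values were seen. Lists were described by counts, without a set test. Single values of 2 listed genes are not reported here. The alternatives tried were DESeq2 and limma-voom as tools, RLE or library size alone as scaling, no filter or a minimum of 1 CPM in 3 libraries, the replicate number as a block, each library left out in turn, adjusted p thresholds of 0.01 and 0.1, and, for the window genes whose start lies in it or coding genes only. Software was R 4.3.3, edgeR 4.0.16, limma 3.58.1, DESeq2 1.42.0, Python 3.11.15 and SciPy 1.17.1.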

Additional observations from a re-analysis of the deposited data

How the results depend on the processing

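Prph, C1ql4, Aqp5 and Kcnh3 kept their direction and their call in all 15 alternatives run for each. Their log2 fold changes ran from 4.74 to 5.10, 7.40 to 9.94, 5.32 to 6.71 and 0.36 to 0.41. Since the members were chosen on this difference in the same libraries, this describes the fits and is no support for the rises. The fitted values of C1ql4 and Aqp5 depend on the prior count. The members called higher numbered 4 to 5 on leaving out a library, Spats2 being lost without KO replicate 1 and also at a threshold of 0.01. Mcrs1, never called, had a log2 fold change of 0.01 that ran from -0.042 to 0.067 on leaving out a library, being -0.0053 when KO replicate 2, -0.018 when KO replicate 3 and -0.042 when WT replicate 2 was left out. Tuba1c, at 0.45 and never called, ran from -0.061 without WT replicate 1 to 1.27 without WT replicate 3. Among the other window genes 1 (Fmnl3) was called with scaling by library size alone (edgeR adjusted p = 0.0416) and 1 at a threshold of 0.1, against 0 in the main test and 0 in every other alternative, leaving out a library included. Flank genes called higher numbered 2 to 4 and lower 0 on leaving out a library. Over all genes 676 to 1101 rose and 48 to 323 fell on leaving out a library, 279 fell with no filter, 614 rose and 47 fell at 0.01, and 395 fell at 0.1. Family genes that fell numbered 1 to 2, Kcnh7 being added without WT replicate 3. Libraries with the same replicate number did not deviate together (r = 0.00465, -0.00921 and -0.0240 for numbers 1 to 3), so the numbers do not pair them. For unlike numbers r ran from -0.124 (KO 2 with WT 1) to 0.128 (KO 2 with WT 3). A pairing across numbers was not tested. With a replicate block 960 genes rose and 149 fell, and the counts of members, window and flank genes called were as in the main test. The cause of these changes was not tested.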

Other observations

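Dhh, the desert hedgehog ligand gene in the flank on the Prph side, was chosen for mention after its values were seen. It had 11, 5 and 12 counts in the KO libraries, against 5, 4 and 2 in the WT libraries. The lowest KO library and the highest WT library shared a count of 5, and in CPM they were barely apart, at 0.258 and 0.255. The gene did not pass the filter on low counts.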
